A study of Mus musculus with 6 samples.

Results

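The genes described here make cholesterol, move it between membranes and control its synthesis through the transcription factor SREBP2. They form a list of 27 symbols and were found by matching Ensembl gene IDs, version removed, in a table of 53715 mouse genes. All 27 were found and all 27 had enough counts to be tested, among 13022 genes tested in all. They comprise 20 enzymes of the route from acetyl-CoA to cholesterol, 4 genes of SREBP2 and its retention (Srebf2, Scap, Insig1 and Insig2) and 3 genes of sterol transport within the cell (Stard4, Npc1 and Npc2).

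Liver RNA came from F1 males of ICR, an outbred mouse stock, at 8 weeks of age. The control F1 group (n = 3 libraries) carried the label control, and the FR F1 group (n = 3 libraries) carried a label of paternal famine. The meaning of FR is not spelled out in the labels, and the title of the series names an overdiet of the fathers, so the groups are called by their label names. No engineered allele, and no treatment of the offspring themselves, is labelled. Diet before collection, hour of collection, litters and the separateness of animals are not stated, so the p-values below measure the spread between these libraries, which may be technical.

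Cholesterol is built in the cytosol and endoplasmic reticulum from acetyl-CoA by way of mevalonate, isoprenyl diphosphates, squalene and lanosterol, and the liver is a main site of this synthesis in the body. SREBP2 sits in the endoplasmic reticulum as a precursor bound to SCAP. When sterols are plentiful, INSIG proteins hold the SCAP complex there. When sterols are scarce, the complex moves to the Golgi, where proteases free the part of SREBP2 that enters the nucleus and activates most genes of the pathway, INSIG1 and SREBP2 itself among them.

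Library totals ranged from 2279755 to 2730160 counts, and the 27 genes held 0.361% to 0.499% of each library. Single values of these genes ranged from 12 to 1125 counts, so counting error matters most for Fdps, Lbr and Ggps1. Levels are given as CPM, counts scaled to a common TMM-adjusted library size. Markers of hepatocytes were present in every library, with 10 of them summing to 5481 to 6404 CPM in control F1 and 4954 to 5626 CPM in FR F1 livers. Of these, Alb, Cyp2e1, Apoa1, Ass1, Tat, Ttr and Fgb reached 0.56 to 1.14 counts per base pair of the longest transcript. That is above the 0.5 taken below as near a count ceiling, so hepatocyte levels and differences may be understated, which was not tested. The summed level of 10 sinusoidal endothelial genes was 353 to 555 CPM in control F1 and 689 to 812 CPM in FR F1 libraries, and that of 9 stellate cell and fibroblast genes was 331 to 547 and 711 to 845 CPM, with positive log2 fold changes in 10 of 10 and 9 of 9. The summed level of 8 Kupffer cell genes overlapped between the groups, at 286 to 529 and 357 to 702 CPM, as did that of 6 cholangiocyte genes, at 43.3 to 138 and 71.4 to 95.2 CPM. Log2 fold changes were positive in 8 of 8 Kupffer cell genes and negative in 9 of 10 hepatocyte genes, with medians of 0.44 and -0.21. Of the genes tested, 3 of 3 B and plasma cell, 3 of 3 erythroid and 1 of 2 cholangiocyte genes were positive, beside 6517 of all 13022. The 6 B and plasma cell genes summed to 30.7 to 71.1 and 73.0 to 161 CPM and the 4 erythroid genes to 164 to 382 and 403 to 464.5 CPM. The 4 adipocyte genes summed to under 2 CPM in each library. Of the 4 pancreatic genes, Prss2 and Ctrb1 were at 0 in all 6. The 4 together summed to 83.3 to 108 CPM in control F1 and 103 to 119 CPM in FR F1 libraries, nearly all of it from Cela1. With edgeR 0 of these markers passed. At an unadjusted p under 0.05 there were 7 of 10 endothelial, 6 of 9 stellate, 2 of 8 Kupffer cell, 2 of 3 tested B and plasma cell, 1 of 3 tested erythroid and 1 of 2 tested cholangiocyte genes higher, beside 9.02% of all genes, and 3 of 10 hepatocyte genes lower, beside 8.88%. DESeq2 called 4 endothelial and 2 stellate genes, beside 3.51% of all genes. In bulk tissue, fewer cells of a type and less RNA per cell cannot be told apart, and the part of these markers in the results below was not tested. Control F1 replicate 3 stood apart with 0.101% mitochondrial counts against 0.282% to 0.352% in the other 5 libraries. Control F1 replicate 1 had a mean Pearson correlation across genes of 0.921 with the other controls and 0.941 with the FR F1 libraries (log2 CPM, genes not being independent replicates). These means were 0.939 and 0.921 for control F1 replicate 2. For control F1 replicate 3 they were 0.915 and 0.880, each the lowest of the 6 libraries. The mean of replicate 1 with the other controls therefore includes this low library. Values without control F1 replicate 1 or 3 are given where leaving it out changed a call or a direction.

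The promoters of 4 of the genes are shown because they stand for the patterns described below. Insig2, Hmgcs1 and Insig1 lay higher in every FR F1 library than in any control F1 library, and Srebf2 encodes the factor that acts on the pathway. Each sequence runs from 250 bases before to 50 bases after the start of the gene (RefSeq, GRCm38.p6, the assembly known as mm10), 5′ to 3′ on the strand of the gene. Capitals mark 3 motifs searched on both strands. They are the sterol regulatory element TCACNCCAC, to which SREBPs bind, the CCAAT box, bound by NF-Y, a known partner of SREBP2, and the E-box CACGTG, which factors of the circadian clock and SREBPs can bind. The 3 motifs do not overlap one another in these windows.
Insig2 (chr1:121332540-121332839, minus strand): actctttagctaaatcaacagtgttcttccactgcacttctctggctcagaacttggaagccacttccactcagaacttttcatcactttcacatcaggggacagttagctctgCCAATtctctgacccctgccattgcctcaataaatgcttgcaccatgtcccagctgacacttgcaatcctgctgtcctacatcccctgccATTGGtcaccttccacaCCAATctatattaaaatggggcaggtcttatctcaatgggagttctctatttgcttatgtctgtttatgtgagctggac
Insig1 (chr5:28071162-28071461, plus strand): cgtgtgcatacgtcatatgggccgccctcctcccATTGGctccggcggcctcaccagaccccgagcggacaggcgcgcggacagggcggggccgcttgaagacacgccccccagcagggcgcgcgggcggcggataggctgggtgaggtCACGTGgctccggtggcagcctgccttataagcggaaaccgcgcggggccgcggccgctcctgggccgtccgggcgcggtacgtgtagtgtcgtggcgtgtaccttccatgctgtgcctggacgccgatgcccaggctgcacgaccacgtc
Hmgcs1 (chr13:119690101-119690400, plus strand): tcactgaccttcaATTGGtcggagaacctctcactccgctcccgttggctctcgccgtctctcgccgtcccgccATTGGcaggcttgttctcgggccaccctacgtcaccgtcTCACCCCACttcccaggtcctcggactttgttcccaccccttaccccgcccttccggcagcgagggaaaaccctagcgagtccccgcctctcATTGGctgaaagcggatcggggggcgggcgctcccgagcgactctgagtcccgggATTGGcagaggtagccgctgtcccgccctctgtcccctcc
Srebf2 (chr15:82147019-82147318, plus strand): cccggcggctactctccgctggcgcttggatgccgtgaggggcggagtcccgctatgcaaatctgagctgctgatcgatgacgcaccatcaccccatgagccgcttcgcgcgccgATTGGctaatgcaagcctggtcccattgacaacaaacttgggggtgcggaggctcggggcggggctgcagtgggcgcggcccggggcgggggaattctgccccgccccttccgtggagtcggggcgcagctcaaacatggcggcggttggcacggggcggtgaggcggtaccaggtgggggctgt

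Of the 27 genes, 22 had at least 1 such window, and 20 of the 22 held a CCAAT box in it. The same motif was found in 37.4% of all 32851 windows and in 42.9% of 9139 tested protein-coding genes with a window. TCACNCCAC was found in 1 of the 22, Hmgcs1, where it reads TCACCCCAC and begins 137 bases before the start, against 1.24% of all windows and 1.5% of the tested protein-coding genes. Only exact matches within the window were searched. The Srebf2 window, for example, reads tcaccccat, which differs in its last letter and was not counted. A missing match therefore does not show that a promoter lacks a sterol regulatory element. CACGTG was found in 5 of the 22 (Insig1, Hsd17b7, Dhcr7, Sc5d and Scap), against 7.15% of all windows and 11.8% of the tested protein-coding genes. Hmgcs1 carried 4 CCAAT boxes, the Insig2 window 3, and the Insig1 and Srebf2 windows 1 each. Insig2 had 3 windows in the RefSeq table, of which the one farthest upstream is printed, and the deposited counts per gene do not separate transcripts from these starts.

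Along the pathway, none of the 27 genes passed the test, and the share whose groups did not overlap, 6 of 27, was near the 25.7% of all genes tested. Insig2, Hmgcs1, Insig1, Hsd17b7 and Lbr were higher in each FR F1 library than in each control F1 library, while Npc1 was lower in each. Squalene epoxidase, lanosterol synthase and 4 other enzymes spread more than 2-fold among the controls, 6 of 20 beside 24.6% of all genes. With edgeR's quasi-likelihood test and Benjamini-Hochberg adjustment over all genes, 0 of the 27 passed an adjusted p of 0.05, where 0.837% of all genes tested did, 0.392% higher and 0.445% lower in FR F1. DESeq2 called 2 (Insig2 and Hmgcs1), both higher, against 3.51% of all genes in either direction and 1.94% higher. The limma-voom fit called 1 (Insig2), against 0.791% in either direction and 0.346% higher.

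At an unadjusted p under 0.05 there were 6 of the 27, all higher in FR F1 (Insig2, Hmgcs1, Insig1, Hsd17b7, Lbr and Idi1), where 17.9% of all genes passed in either direction and 9.02% in that one. None was lower, where 8.88% of all genes were. The groups did not overlap in 6 of the 27, 5 with FR F1 above and 1 below, beside 12.5% and 13.2% of all genes tested, or 25.7% in either direction. By sign, 14 log2 fold changes were positive and 13 negative. Their median was 0.03, beside 0.00 over all genes tested. The 95% interval of the difference lay within 2-fold in both directions for 18 of the 27 and reached past it for the other 9, which were Pmvk, Mvd, Idi1, Fdps, Sqle, Lss, Lbr, Hsd17b7 and Insig2. A missed threshold does not show that the remaining genes were alike in the groups.

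**Figure D1:**
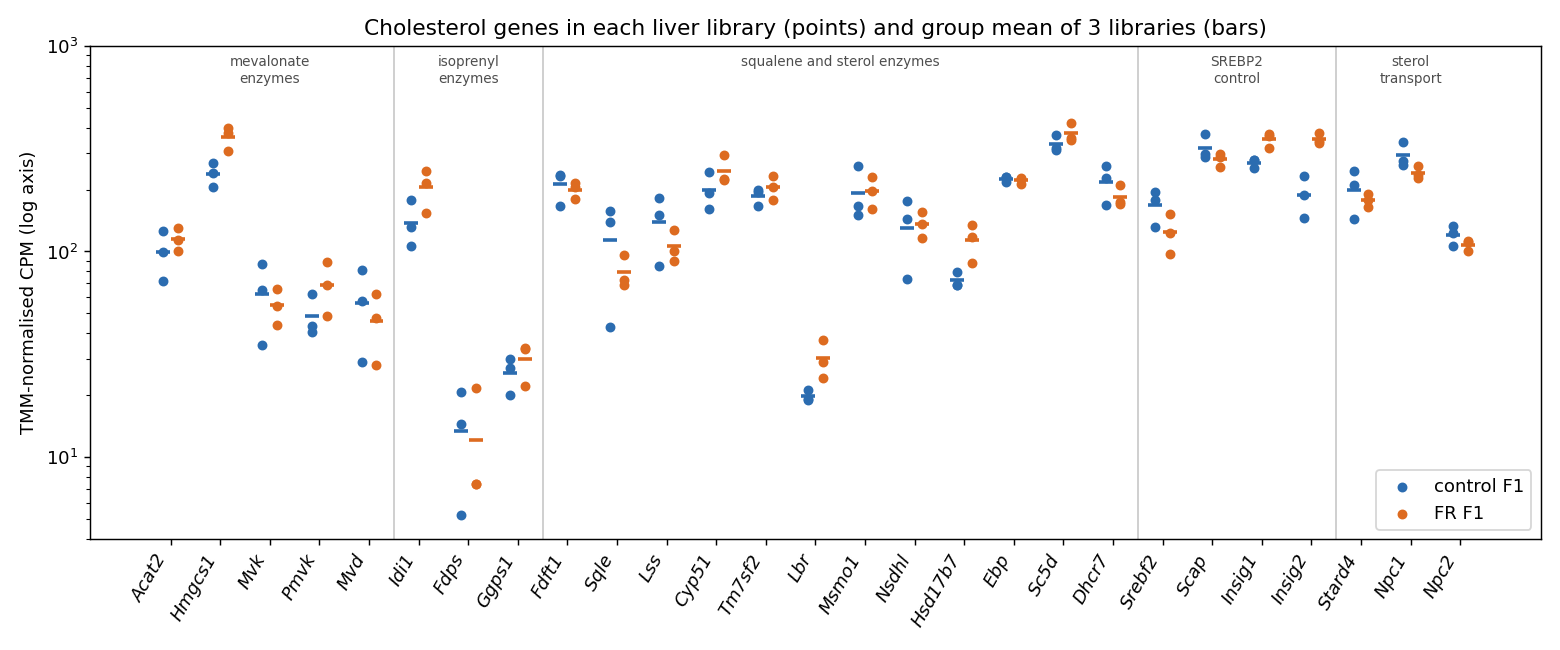
TMM-normalised CPM of the 27 genes on a log axis, ordered by role from left to right, with a point for each library and a bar for each group mean (control F1 blue, FR F1 orange, 3 libraries each). Insig2 separates the groups, at 146 to 232 CPM in control F1 and 336 to 377 CPM in FR F1 libraries, while Sqle spreads from 42.9 to 157 CPM within the controls.

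Insig2, which encodes an anchor that keeps the SCAP complex in the endoplasmic reticulum, had the largest difference of the 27 genes (ENSMUSG00000003721.14, chromosome 1, 121304353 to 121332589, minus strand). It had 187, 232 and 146 CPM in control F1 replicates 1, 2 and 3 and 336, 377 and 346 CPM in FR F1 replicates 1, 2 and 3. The lowest FR F1 library was thus above the highest control, and the FR F1 libraries lay close together, within 1.12-fold. The fitted log2 fold change was 0.91 ± 0.17 (SE, n = 3 per group; 95% interval 0.52 to 1.29; edgeR adjusted p = 0.0614), a 1.87-fold difference that did not pass. It remained between 0.75 and 1.08 when each library was left out in turn. The call itself depended on the analysis. Insig2 passed with DESeq2 (adjusted p = 0.00122), limma-voom (0.0475), upper-quartile factors (0.0482) and library totals alone (0.0485), the last pair calling 0.891% and 0.883% of all genes. It also passed with no filter on low counts (1.46e-06), where 4.04% of all genes did. With a library left out it passed without control F1 replicate 1 (0.0456) or 3 (0.0414), fits that called 4.83% and 1.19% of all genes. It did not pass without control F1 replicate 2 (edgeR adjusted p = 0.101), where 0.127% of all genes did, or without FR F1 replicate 1, 2 or 3 (0.206, 0.233 and 0.177), where 0.0527%, 0.0825% and 0.336% did.

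Insig2 is known to differ from Insig1 in that its transcription is not driven by SREBP2. In mouse liver its transcript is known to oscillate over the day, with the clock repressor REV-ERBα, the product of Nr1d1, among its regulators. In these libraries Nr1d1 had 369, 351 and 440.3 CPM in control F1 and 188, 234 and 332 CPM in FR F1 replicates 1, 2 and 3, a log2 fold change of -0.62 ± 0.20 (edgeR adjusted p = 0.187). The clock genes Arntl (5.67 ± 2.19 against 51.5 ± 7.06 CPM, control F1 against FR F1, mean ± SD, n = 3 each), Per2 (161 ± 45.8 against 53.2 ± 10.1 CPM) and Per3 (209 ± 56.8 against 23.2 ± 12.6 CPM) changed in the same fit (edgeR adjusted p = 0.00579, 0.0385 and 0.0201). Arntl did not pass without FR F1 replicate 1 or 2 (0.0575 and 0.0520), and neither Per3 nor Per2 passed without control F1 replicate 2 (0.0830 and 0.138), FR F1 replicate 1 (0.0604 and 0.174) or FR F1 replicate 2 (0.133 and 0.178). Per2 also did not pass without FR F1 replicate 3 (0.0967). The hour of collection is not in the labels, and the part of the clock genes in the Insig2 difference was not tested.

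Insig1, the anchor whose own transcription rises with SREBP2 activity, was the most abundant of the 4 control genes per length (ENSMUSG00000045294.11, chromosome 5, 28071363 to 28078662). It had 277, 255 and 279.6 CPM in control F1 and 365, 318 and 374 CPM in FR F1 replicates 1, 2 and 3, again without overlap. Its log2 fold change was 0.38 ± 0.11 (95% interval 0.13 to 0.63; edgeR adjusted p = 0.146). Per kilobase of exonic length, Insig1 stood at 87.4 CPM and Insig2 at 54.3 CPM in control F1, and at 114 and 102 CPM in FR F1 livers. The ratio of Insig2 to Insig1 counts per exonic base pair was 0.602, 0.812 and 0.464 in control F1 and 0.819, 1.05 and 0.824 in FR F1 libraries, so that control F1 replicate 2 was nearly level with FR F1 replicate 1.

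Srebf2, the gene of the transcription factor itself, had a negative log2 fold change where both anchors had a positive one (ENSMUSG00000022463.8, chromosome 15, 82147181 to 82205379). It had 132, 179 and 194.5 CPM in control F1 and 153, 96.9 and 124 CPM in FR F1 replicates 1, 2 and 3, so that the groups overlapped. The log2 fold change was -0.44 ± 0.21 (95% interval -0.92 to 0.04; edgeR adjusted p = 0.312). Scap, which encodes the escort that binds both SREBP2 and the INSIG proteins, had 288, 297 and 371 CPM in control F1 and 298, 258 and 289 CPM in FR F1 libraries. Its log2 fold change was -0.18 ± 0.13 (edgeR adjusted p = 0.485), and -0.06 without control F1 replicate 3. An antisense-strand gene model covers 985 of the 7443 exonic base pairs of Scap, with 51 to 138 counts per library.

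A ratio of counts within a library needs no scaling between libraries. For each Srebf2 count there were 1.42, 1.30 and 0.750 Insig2 counts in control F1 and 2.20, 3.89 and 2.80 in FR F1 replicates 1, 2 and 3. For Insig1 the ratio was 2.10, 1.43 and 1.44 in control F1 and 2.39, 3.29 and 3.03 in FR F1 libraries, and for Hmgcs1 it was 1.56, 1.51 and 1.24 against 2.61, 3.88 and 2.48. Each of the 3 ratios was higher in every FR F1 library than in any control F1 library. These ratios were chosen after the values were seen and are given without a test.

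**Figure D2:**
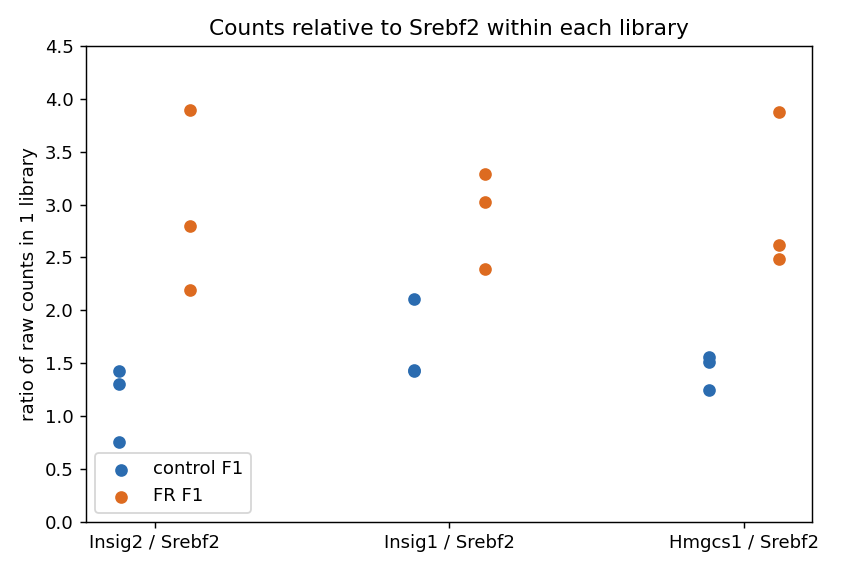
Raw counts of Insig2, Insig1 and Hmgcs1 divided by the raw counts of Srebf2 in the same library, with a point for each control F1 (blue) and FR F1 (orange) library and a linear axis that starts at 0. The smallest gap between the groups is that of Insig1, from 2.10 in control F1 replicate 1 to 2.39 in FR F1 replicate 1.

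The first enzymes of the route split as well. Hmgcs1, HMG-CoA synthase of the cytosol, was the most abundant of the 5 enzymes up to Mvd per length (ENSMUSG00000093930.2, chromosome 13, 119690379 to 119708260). It had 206, 270.0 and 241 CPM in control F1 and 399.7, 376 and 307 CPM in FR F1 replicates 1, 2 and 3, so that all FR F1 libraries lay above the controls. The log2 fold change was 0.59 ± 0.15 (95% interval 0.26 to 0.93; edgeR adjusted p = 0.112), and it was 0.50 to 0.71 with each library left out. It passed with DESeq2 (adjusted p = 0.0358). An antisense gene model shares 557 of its 4594 exonic base pairs and had 51 to 163 counts with a log2 fold change of -0.35. Whether the counting used strand is not stated in the labels or file.

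Acat2, the cytosolic thiolase that feeds Hmgcs1, ranged from 72.0 to 126 CPM in control F1 and from 100.5 to 129 CPM in FR F1 livers, with a log2 fold change of 0.21 ± 0.22 that was 0.02 without control F1 replicate 1. Pmvk, phosphomevalonate kinase, ranged from 40.6 to 62.1 and from 48.6 to 89.0 CPM, with a log2 fold change of 0.50 ± 0.26 (edgeR adjusted p = 0.351). Mevalonate kinase (Mvk) and the decarboxylase that ends this stretch (Mvd) had negative values, -0.19 ± 0.32 and -0.29 ± 0.40. Control F1 replicate 3 had the highest level of each, 86.7 and 81.3 CPM, and without it both values were positive (0.13 and 0.08).

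Idi1, the isomerase that makes the reactive isoprenyl unit, had 106, 178 and 131 CPM in control F1 and 214, 247 and 154 CPM in FR F1 replicates 1, 2 and 3. The groups overlapped, since control F1 replicate 2 was above FR F1 replicate 3, and the log2 fold change was 0.57 ± 0.23 (95% interval 0.04 to 1.10; edgeR adjusted p = 0.256). Fdps and Ggps1 join these units into farnesyl and geranylgeranyl diphosphate. Fdps was the least counted of the 27 genes, at 5.20 to 20.7 CPM in control F1 and 7.37 to 21.7 CPM in FR F1 livers, and its log2 fold change of -0.15 ± 0.58 has an interval from -1.49 to 1.19. Its sign changed without control F1 replicate 3 (0.31) or FR F1 replicate 2 or 3 (0.11 and 0.12). A protein-coding gene model on the same strand, with 0 counts in every library, shares 1124 of the 4208 exonic base pairs of Fdps. How reads in shared exons were assigned is not stated in the labels or file. Ggps1 had 19.9 to 29.9 CPM in control F1 and 22.2 to 34.0 CPM in FR F1 livers, with 0.23 ± 0.25, and it shares 257 of 4721 exonic base pairs with Arid4b on the other strand (105 to 348 counts, log2 fold change 0.77).

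**Figure D3:**
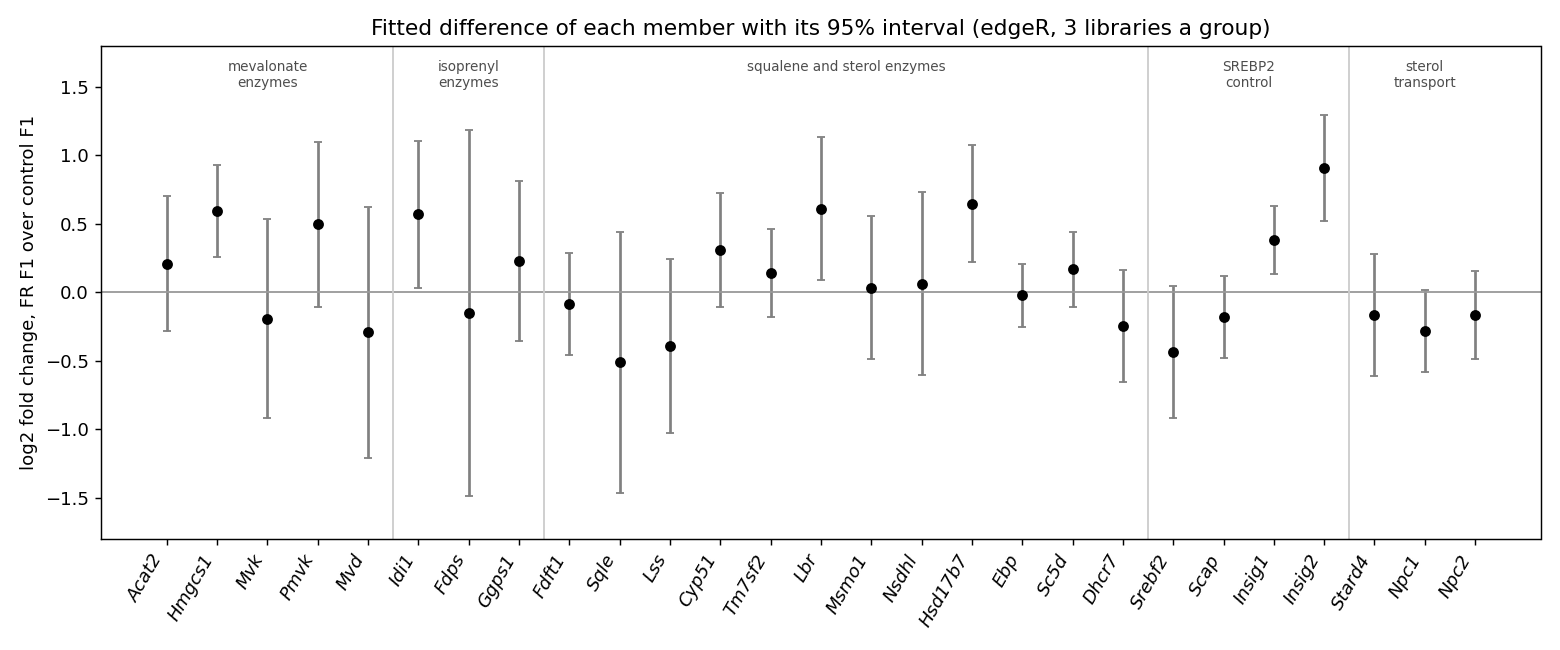
Fitted log2 fold change of each of the 27 genes, FR F1 over control F1, with its 95% interval from the edgeR fit to 3 libraries a group, ordered by role. The intervals of Insig2, Hmgcs1, Insig1, Hsd17b7, Lbr and Idi1 lie above 0 before any adjustment for the number of genes tested, and none lies wholly below 0.

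Among the 12 enzymes that turn farnesyl diphosphate into cholesterol, Hsd17b7 and Lbr had the highest log2 fold changes and Sqle and Lss the lowest. Hsd17b7, the ketoreductase that helps remove methyl groups from the sterol ring (ENSMUSG00000026675.12, chromosome 1, 169949535 to 169969241), had 68.9, 79.8 and 68.7 CPM in control F1 and 118, 135 and 87.8 CPM in FR F1 replicates 1, 2 and 3. The log2 fold change was 0.65 ± 0.19 (95% interval 0.22 to 1.08; edgeR adjusted p = 0.152). Lbr, a sterol reductase that is also a receptor for lamin B in the inner nuclear membrane, had 19.1, 18.9 and 21.1 CPM in control F1 and 37.0, 24.3 and 29.1 CPM in FR F1 libraries. Its log2 fold change was 0.61 ± 0.23 (edgeR adjusted p = 0.223). In both genes each FR F1 library lay above each control. Lbr shares 440 of 4761 exonic base pairs with Dnah14 on the other strand, which had 9 to 32 counts and a log2 fold change of 0.66. Lbr is expressed in many cell types, and the endothelial and stellate marker sums given above also lay higher in FR F1 libraries; their part in the Lbr values was not tested.

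Tm7sf2, the other reductase for the same step, was more abundant than Lbr, at 42.4 against 4.14 CPM per kilobase of exonic length in control F1 livers. It shares 532 of 4403 exonic base pairs with Vps51 on the same strand, which had 7 to 19 counts. Its range was 167 to 199.7 CPM in control F1 and 178 to 234 CPM in FR F1 libraries, and its log2 fold change was 0.14 ± 0.14 (edgeR adjusted p = 0.606).

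Sqle, squalene epoxidase, a rate-controlling enzyme of the sterol branch (ENSMUSG00000022351.14, chromosome 15, 59315077 to 59331192), had the lowest log2 fold change of the 27, -0.51 ± 0.42 (95% interval -1.47 to 0.44; edgeR adjusted p = 0.530). It had 42.9, 157 and 139.6 CPM in control F1 and 96.5, 73.0 and 68.9 CPM in FR F1 replicates 1, 2 and 3. Control F1 replicate 1 was the lowest of all 6 libraries and the other 2 controls the highest. The result turned on that library. Without control F1 replicate 1 the log2 fold change was -0.90 ± 0.18 and passed (edgeR adjusted p = 0.0385), in a fit in which 4.83% of all genes passed. Lss, lanosterol synthase, which closes the sterol rings, was likewise lowest in control F1 replicate 1 and highest in the other controls, with 84.6, 151 and 182 CPM in control F1 and 128, 101 and 89.5 CPM in FR F1 libraries. Its log2 fold change was -0.39 ± 0.28 (edgeR adjusted p = 0.469), and it ranged from -0.65 without control F1 replicate 1 to -0.15 without control F1 replicate 3.

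The ratio of Hmgcs1 to Sqle counts set an early against a later enzyme within each library, chosen after the values were seen. It was 4.80, 1.72 and 1.73 in control F1 replicates 1, 2 and 3 and 4.14, 5.15 and 4.45 in FR F1 replicates 1, 2 and 3. Control F1 replicate 1 lay among the FR F1 libraries in this ratio, apart from the other controls.

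Ebp, the isomerase that shifts a double bond in the sterol ring, was the most abundant of the 27 genes per length in control F1 livers, at 98.0 CPM per kilobase, and stood at 96.4 in FR F1 livers, below Insig1 and Insig2. Its ratio of the highest to the lowest library was the smallest of the 27 genes in each group. It had 231, 230.3 and 218 CPM in control F1 and 229, 214 and 226 CPM in FR F1 replicates 1, 2 and 3, with a log2 fold change of -0.02 ± 0.10 (95% interval -0.26 to 0.21; edgeR adjusted p = 0.920). Sc5d, the desaturase near the end of the route, had 313 to 370.0 CPM in control F1 and 349 to 421 CPM in FR F1 livers, with a log2 fold change of 0.17 ± 0.12. Dhcr7, the last reductase before cholesterol on its branch, had 168 to 259.7 and 169.5 to 211 CPM, with -0.24 ± 0.18.

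The remaining enzymes of this stretch had log2 fold changes between -0.08 and 0.31. Squalene synthase (Fdft1), the first enzyme committed to sterols, ranged from 166 to 236 CPM in control F1 and from 179 to 215 CPM in FR F1 livers. Of its 4227 exonic base pairs, 774 are shared with the cathepsin gene Ctsb on the other strand, which had 1074 to 1327 counts and a log2 fold change of -0.18. Lanosterol demethylase (Cyp51) had a log2 fold change of 0.31 ± 0.18 (edgeR adjusted p = 0.396), with 160.4 to 243 CPM in control F1 and 222 to 293 CPM in FR F1 livers. Methyl sterol oxidase (Msmo1) and the decarboxylase Nsdhl had 0.03 ± 0.23 and 0.06 ± 0.29, and the sign of each depended on the library left out. Msmo1 was at -0.06 without control F1 replicate 1, -0.12 without control F1 replicate 3 and -0.09 without FR F1 replicate 1. Nsdhl was at -0.22 without control F1 replicate 1.

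The 20 enzymes leaned to one side of their average most in the libraries numbered 1. Measured as log2 CPM of each gene against its average over all 6 libraries, 18 of the 20 lay below that average in control F1 replicate 1, beside 47.5% of all genes tested, and 0 of the 20 in FR F1 replicate 1, beside 46.8%. The number below was 5 and 11 in control F1 replicates 2 and 3 and 9 and 13 in FR F1 replicates 2 and 3, beside 46.4% to 48.6% of all genes. The median deviation of the enzymes was -0.41, 0.18 and -0.03 in control F1 replicates 1, 2 and 3 and 0.28, 0.01 and -0.05 in FR F1 replicates 1, 2 and 3. Both the lowest control and the highest FR F1 library thus had the number 1, and the remaining 4 libraries lay between them. Control F1 replicate 1 had the lowest value of the 6 libraries in 13 of the 20 enzymes, where it was lowest in 15.4% of all genes tested.

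A wide spread among controls was about as frequent among the enzymes as among all genes. In 6 of the 20 enzymes (Fdps, Sqle, Mvd, Mvk, Nsdhl and Lss) the highest control exceeded the lowest more than 2-fold, beside 24.6% of all genes tested. Control F1 replicate 1 was the lowest control in all 6. How often it was the lowest control among all genes with such a spread was not counted, so this has no background share beside it. The ratio was 3.98 for Fdps, 3.66 for Sqle, 2.80 for Mvd, 2.47 for Mvk, 2.40 for Nsdhl and 2.16 for Lss. Among FR F1 libraries the same held for 2 of the 20, Fdps at 2.94 and Mvd at 2.22, beside 10.6% of all genes. The median deviation in control F1 replicate 1 was -0.13 for the 4 genes of SREBP2 and its retention and 0.22 for the 3 transport genes.

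**Figure D4:**
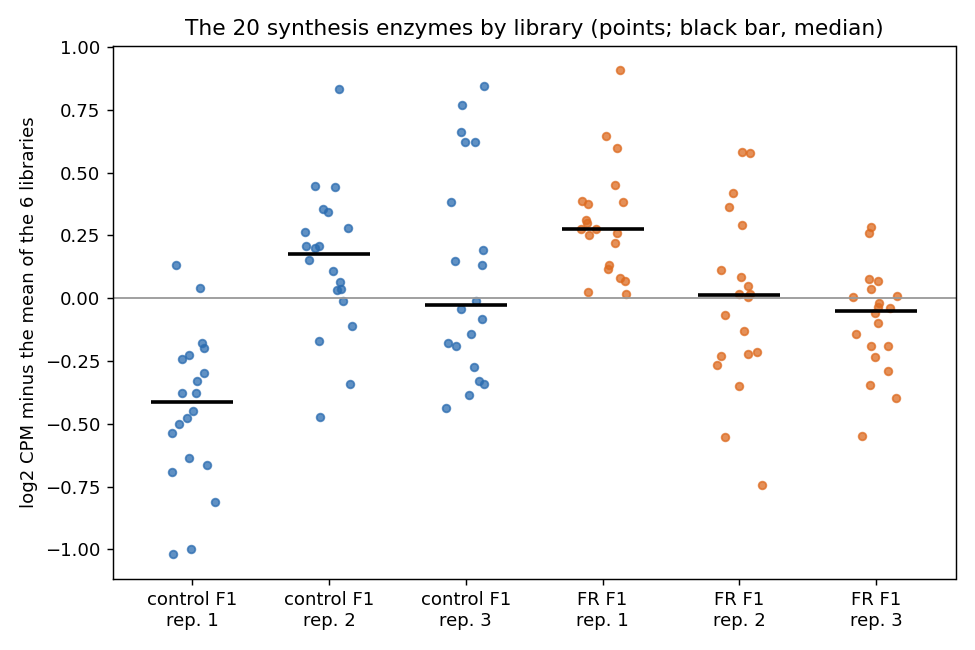
Deviation of each of the 20 synthesis enzymes from its mean over the 6 libraries, in log2 CPM, with a point for each enzyme, coloured blue for control F1 and orange for FR F1, the black bars being library medians. Control F1 replicate 1 has the lowest median (-0.41) and FR F1 replicate 1 the highest (0.28).

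The 3 transport genes had negative log2 fold changes, that of Stard4 only while control F1 replicate 1 was included. Npc1, the lysosomal membrane protein that exports cholesterol taken up with lipoproteins (ENSMUSG00000024413.13, chromosome 18, 12189692 to 12236400), had 275, 264 and 341 CPM in control F1 and 227, 235 and 262 CPM in FR F1 replicates 1, 2 and 3. It is singled out after its values were seen, as the only one of the 27 genes in which every FR F1 library lay below every control, by a narrow margin between FR F1 replicate 3 and control F1 replicate 2. The log2 fold change was -0.28 ± 0.13 (95% interval -0.58 to 0.02; edgeR adjusted p = 0.299). Npc2, the soluble lysosomal protein that hands cholesterol to NPC1, had 106 to 133 CPM in control F1 and 100.2 to 112 CPM in FR F1 livers, with -0.17 ± 0.14 (edgeR adjusted p = 0.545).

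Stard4, a soluble carrier of cholesterol between membranes and the most abundant transport gene per merged exonic length (35.7 against 25.9 CPM per kilobase for Npc1 in control F1, but 39.1 against 51.0 by the longest transcript; ENSMUSG00000024378.9, chromosome 18, 33199355 to 33213862), had 245, 210.5 and 143 CPM in control F1 and 178, 189.8 and 164 CPM in FR F1 replicates 1, 2 and 3. The controls spanned the FR F1 libraries on both sides. The log2 fold change was -0.17 ± 0.19 (edgeR adjusted p = 0.656), and it was 0.01 without control F1 replicate 1 and -0.36 without control F1 replicate 3.

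Among other genes of sterol metabolism the acetoacetyl-CoA synthetase gene Aacs fell. Aacs, which turns the ketone body acetoacetate into acetoacetyl-CoA for lipid synthesis in the cytosol (ENSMUSG00000029482.4, chromosome 5, 125475814 to 125517410), had 139, 149 and 122 CPM in control F1 and 61.3, 40.9 and 60.3 CPM in FR F1 replicates 1, 2 and 3. Every FR F1 library was well below every control. The log2 fold change was -1.34 ± 0.19 (edgeR adjusted p = 0.0321), and it lay between -1.42 and -1.17 with each library left out in turn. The call ended without control F1 replicate 2 (edgeR adjusted p = 0.124) and without FR F1 replicate 1, 2 or 3 (0.163, 0.126 and 0.0954). It also ended when the replicate number was added to the edgeR fit as a block (adjusted p = 0.0815).

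Aacs was 1 of 54 further genes of the pathway in 3 lists, of which 0 were higher and 53 did not pass with edgeR, beside 0.837% of all genes. Of the 54, 19 log2 fold changes were positive and 35 negative, with a median of -0.12. Groups did not overlap in 5 with FR F1 above and 10 with FR F1 below, beside 12.5% and 13.2% of all genes.

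In the list of sterol handling and esterification, 1 of 22 was lower and 21 did not pass, with a median of -0.08. At an unadjusted p under 0.05 in edgeR there were 7 of 22, beside 17.9% of all genes. Of these 3 were higher and 4 lower, beside 9.02% and 8.88%. DESeq2 called 3 (Aacs, Scarb1 and Rdh11), beside 3.51% of all genes. Rdh11 was higher in FR F1, with a log2 fold change of 0.55 ± 0.14 (edgeR adjusted p = 0.1125, DESeq2 adjusted p = 0.0433). After Aacs the smallest p belonged to Scarb1, the receptor that takes up cholesterol from high-density lipoprotein, with 345, 366 and 298 CPM in control F1 and 219, 233 and 219 CPM in FR F1 libraries. Its log2 fold change was -0.59 ± 0.11 (edgeR adjusted p = 0.0691), and it passed with DESeq2 (adjusted p = 0.0113) and without control F1 replicate 3 (0.0302).

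In the list of SREBP processing and sterol-regulated degradation, 0 of 14 passed with edgeR and 0 with DESeq2 or limma-voom, with 2 at an unadjusted p under 0.05, both lower, where 8.88% of all genes were lower and 17.9% passed in either direction. They were Rnf145, a ubiquitin ligase of the endoplasmic reticulum that acts on SCAP, with 85.0, 50.9 and 73.3 CPM in control F1 and 49.4, 32.8 and 39.4 CPM in FR F1 libraries (log2 fold change -0.78 ± 0.24, edgeR adjusted p = 0.169), and Erlin1, a membrane protein that binds cholesterol there, with 164, 133 and 100.1 against 80.0, 95.4 and 89.9 CPM (-0.58 ± 0.20, edgeR adjusted p = 0.194). The list had a median of -0.14.

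In the list of non-sterol isoprenoid branches, which lead to dolichol, ubiquinone and prenylated proteins, 0 of 18 passed with any of edgeR, DESeq2 and limma-voom, and at an unadjusted p of 0.05 in edgeR the count was 0 as well. The median was -0.14. The smallest p belonged to the dolichol pathway gene Dolpp1, at -0.45 ± 0.23 (edgeR adjusted p = 0.339), and to Cox10, which attaches a farnesyl group to haem, at -0.43 ± 0.23 (edgeR adjusted p = 0.358).

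**Figure D5:**
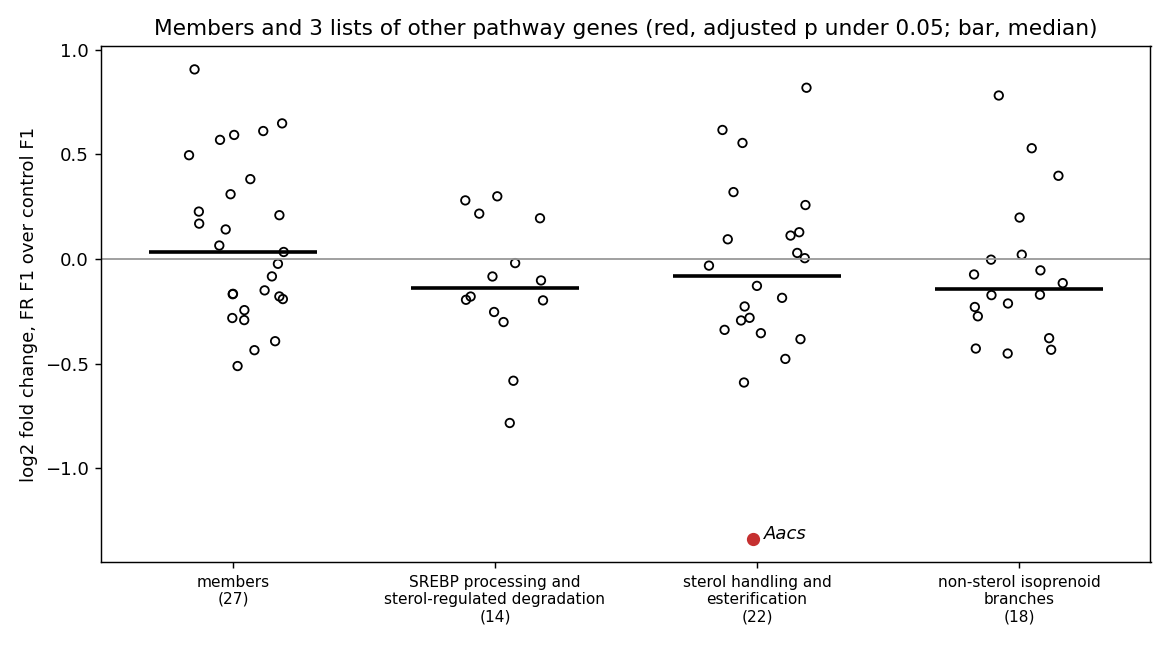
Log2 fold change, FR F1 over control F1, of the 27 genes and of 3 lists of other pathway genes (14, 22 and 18), with an open circle for a gene that did not pass, a red point for an adjusted p under 0.05 (edgeR) and a bar for the median. Aacs at -1.34 is the only point that passed, and the medians lie between -0.14 and 0.03.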

How the data were processed

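Poly(A) RNA of 6 liver libraries was compared, 3 control F1 and 3 FR F1, grouped by sample title. The authors deposited 1 table of raw counts per gene. STAR, StringTie, HTSeq, DESeq2 and the build mm10 appear in the submitters' processing notes. Their versions, the annotation release, strand setting and duplicate removal were not given in any source used here. The labels name a TruSeq kit made for DNA. Columns were matched to samples by the code in the description. Symbols, positions and lengths are from GENCODE M21 (mm10), which matched 53620 of 53715 IDs.

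The fit used edgeR 4.0.16 under R 4.3.3 (filterByExpr, minimum count 10 and total 15; TMM; estimateDisp, glmQLFit, glmQLFTest; two-sided), with Benjamini-Hochberg adjustment over all 13022 genes kept. SE is the absolute log2 fold change over the square root of F. Levels between genes use CPM per kilobase of merged exons. Deviations use log2 CPM with a prior count of 2. All replicate pairs differed beyond counting noise (chi-square 4.32 to 14.8 per degree of freedom). On simulated data the fit recovered 35 of 100 genes changed 2-fold and 87 of 100 changed 4-fold among 13022, with 13 false calls. Alternatives were DESeq2 1.42.0, limma-voom (limma 3.58.1), 3 scalings, 2 filters, a robust fit, a replicate block and each library left out. A further fit left out the 293 genes at or above 0.5 counts for each base pair of the longest transcript. The highest such value among the 27 genes was 0.379.

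The members and lists were chosen with earlier results of these data known. Values of each library were given for the 3 genes with the highest and the 3 with the lowest log2 fold change, the most abundant gene of each role per length, the SREBP2 control genes, and per further list the called genes and the 2 smallest p.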

Additional observations from a re-analysis of the deposited data

How the results depend on the processing

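The number of the 27 genes called was 0 with edgeR, 0 with RLE factors, a filter of 1 CPM in 3 libraries, a robust fit, the replicate block or genes near the count ceiling left out, and 2 with DESeq2, 1 each with limma-voom, upper-quartile factors and library totals alone, and 4 without a filter on low counts (Insig2, Hmgcs1, Hsd17b7 and Idi1, where 4.04% of all genes passed). With each library left out it was 0 to 2, with Insig2 and Sqle called without control F1 replicate 1 and Insig2 without control F1 replicate 3. The further pathway genes called, 1 with edgeR, were 3 with DESeq2, 6 without a filter, 0 with the replicate block (Aacs, adjusted p = 0.0815), and 0 to 2 with each library left out. All genes called, 109 with edgeR, were 457 with DESeq2, 1251 without a filter, 21 with the replicate block, and 7 to 651 with each library left out (651 without control F1 replicate 1, 17 without control F1 replicate 2, and 7, 11 and 45 without FR F1 replicates 1, 2 and 3). The cause of these differences was not tested. The median of the 27 log2 fold changes ranged from -0.03 to 0.19 over the 16 alternatives. Of 432 recomputed member values, 13 changed sign, in 8 genes, none of them called. Deviations of same-numbered libraries from their group means correlated at -0.02, 0.11 and 0.15. Differently numbered libraries were not compared, so these values cannot decide whether the replicate numbers pair the libraries. With the longest transcript in place of merged exons, 15 of the 27 control F1 levels per kilobase moved by more than 1 SD. Depth limits Fdps and Lbr most.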
